A study of Mus musculus with 8 samples.

Results

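Class 3 semaphorins and their receptors were described as a set of 10 genes in mouse embryonic fibroblasts (MEFs), fibroblasts cultured from mouse embryos. The 10 were taken by gene name, out of 48527 genes in the table of per-library values. They are 6 ligands (Sema3a, Sema3b, Sema3c, Sema3d, Sema3e and Sema3f), both neuropilins (Nrp1 and Nrp2) and 2 plexins (Plxna1 and Plxnd1). The family was selected on the FPKM of these same libraries, with the differences between libraries labelled YAP and EV already known. Differences between those groups are therefore a description of the 10 genes, and their adjusted p-values give only their place among all genes tested.

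Class 3 semaphorins are secreted proteins, best known as repellents of growing axons, and they also act on endothelial cells and on cell migration. They bind neuropilins, which hold the ligand but do not signal by themselves, and the signal passes through plexins of the A family in the same complex. Plexins act on small GTPases and thereby on integrin adhesion and the actin cytoskeleton. Sema3e differs from the others in that it binds plexin D1 directly.

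Polyadenylated RNA was measured in 8 libraries. The 4 libraries labelled YAP came from MEFs given lentivirus for wild-type YAP fused to a fluorescent protein, and YAP is the transcriptional co-activator that the Hippo kinases restrain. The 4 libraries labelled EV came from MEFs given an empty control vector that encodes the fluorescent protein. The reporter was GFP for replicates 1 and 2 of either group, and mCherry for replicates 3 and 4. All cultures were kept in medium with 1 ug/mL doxycycline and were sorted on the reporter. The labels give neither mouse strain nor embryo age. They also do not say whether replicates were separate cultures, and the spread behind every p-value may therefore be technical.

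Expression is given as FPKM, the number of fragments scaled by transcript length and by library size. FPKM sums ranged from 880441 to 897659 in libraries labelled YAP and from 733152 to 1018400 in those labelled EV, and fragment counts were not used here. Yap1 itself stood at 80.0 to 84.9 FPKM in libraries labelled YAP and at 88.4 to 93.2 FPKM in libraries labelled EV, so the labels are not checked by this transcript, and every direction is given for libraries as labelled. All 4 known YAP targets looked at as a check (Cyr61, Ctgf, Ankrd1 and Amotl2) were higher in libraries labelled YAP (limma adjusted p from 0.00273 to 0.0170). Within libraries labelled YAP, Amotl2 held 505 and 546 FPKM with GFP and 180 and 200 FPKM with mCherry. It held 71.6 to 111 FPKM in libraries labelled EV. Cyr61 held 894 and 931 FPKM with GFP and 741 and 872 FPKM with mCherry in libraries labelled YAP, and Ctgf and Ankrd1 overlapped between the reporters there. All 12 fibroblast markers were measured, with sums of 10856 to 12495 FPKM in libraries labelled YAP and 11004 to 11823 FPKM in those labelled EV. The fitted differences of 9 of the 12 lay below 0, and 3 of them (Lum, Postn and Pdgfra) were lower in libraries labelled YAP. In bulk samples fewer cells of a type and less RNA per cell cannot be told apart.

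Of the 6 ligands 4 were higher in libraries labelled YAP, and of the 4 receptors 0 passed in either direction. Sema3a, Sema3c, Sema3e and Sema3f rose in libraries labelled YAP, by 1.23-fold to 1.78-fold in the fit, and the fitted differences of Sema3b and Sema3d were also above 0 without passing the threshold. The receptors had fitted log2 differences from -0.35 to 0.16. In all, 4 of the 10 genes passed upwards and 0 downwards at an adjusted p under 0.05, in a fit in which 0.934% of all 13276 tested genes passed upwards and 0.821% downwards. The same 4 genes had every library labelled YAP above every library labelled EV, which held for 4.63% of all tested genes. Without adjustment 8 of the 10 had p under 0.05, all higher in libraries labelled YAP except Plxnd1, which was lower. Of all tested genes 14.5% had p under 0.05 in either direction and 7.39% upwards. Since the genes were named with this contrast known, nothing is read from these shares.

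**Figure D1:**
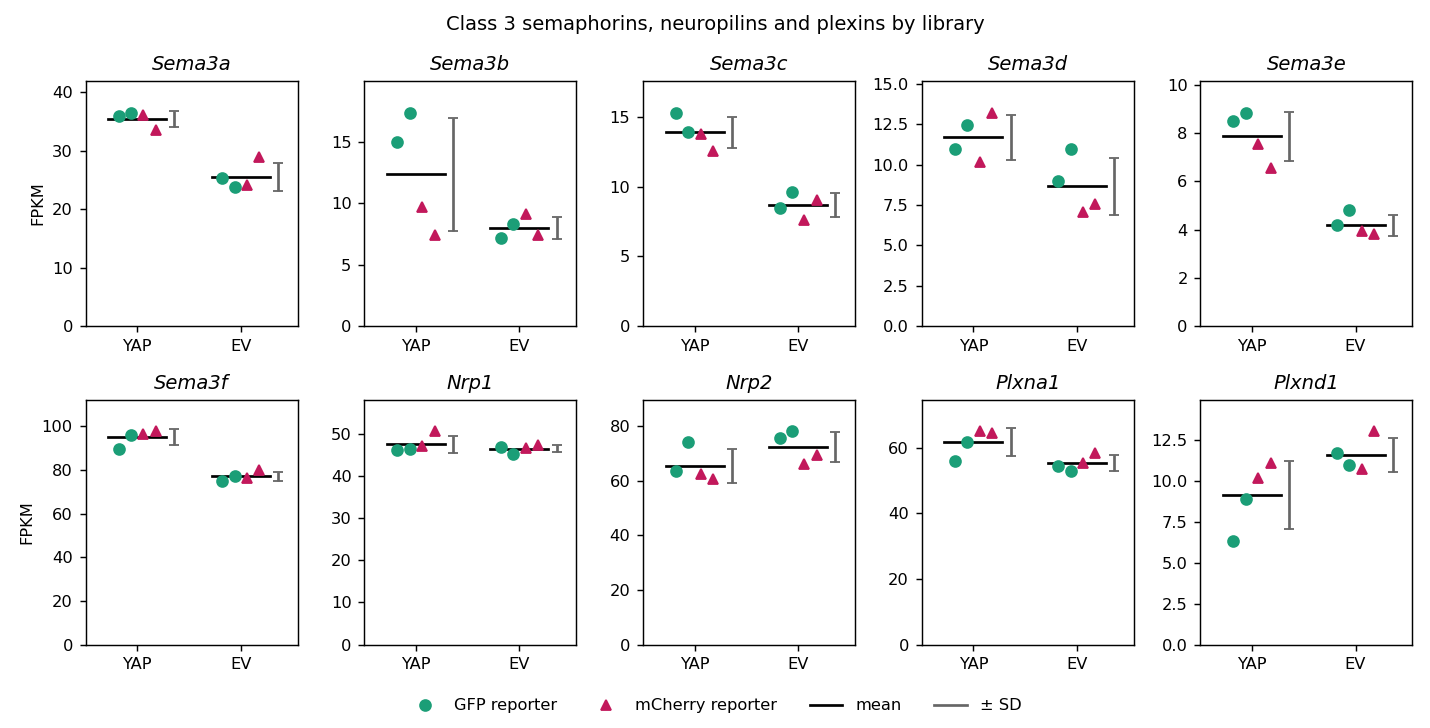
FPKM (y axis, from 0) of the 10 genes in the 4 libraries labelled YAP and the 4 labelled EV; circles are GFP and triangles mCherry libraries, black lines are means and grey bars ± SD. Sema3a, Sema3c, Sema3e and Sema3f show no overlap between the groups, whereas Nrp1 sits at 45.2 to 50.6 FPKM throughout.

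Sema3e, the ligand of plexin D1, showed the largest fitted difference of the 10 genes. Its level was 8.51, 8.83, 7.54 and 6.56 FPKM in YAP replicates 1 to 4, against 4.18, 4.79, 3.94 and 3.82 FPKM in EV replicates 1 to 4. The groups did not overlap, and within each group the GFP libraries were above the mCherry libraries. The means were 7.86 ± 1.02 FPKM in libraries labelled YAP and 4.18 ± 0.432 FPKM in libraries labelled EV (SD, n = 4 each). On the log2(FPKM + 0.5) scale, which understates changes of low genes, the difference was 0.83 (SE 0.093, limma adjusted p = 0.0119). It passed without each library but 1, the exception being YAP replicate 2 (adjusted p = 0.0583).

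Sema3c, which binds both neuropilins and guides neural crest cells into the outflow tract of the heart, came next. It stood at 15.3, 13.9, 13.7 and 12.6 FPKM in YAP replicates 1 to 4 and at 8.48, 9.62, 7.62 and 9.02 FPKM in EV replicates 1 to 4. The lowest library labelled YAP lay above the highest labelled EV. The log2 difference was 0.65 (SE 0.089, limma adjusted p = 0.0208). Both reporters gave nearly the same difference, 0.66 with GFP and 0.63 with mCherry. Its call was lost without each library but EV replicate 4 (adjusted p = 0.0487 without that one, and up to 0.0772 without another).

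Sema3a, the founding axon repellent of the class and a ligand of neuropilin 1, was the second most abundant ligand. Its values were 35.96, 36.5, 36.1 and 33.5 FPKM in YAP replicates 1 to 4, against 25.3, 23.7, 24.2 and 29.0 FPKM in EV replicates 1 to 4. The first 3 libraries labelled YAP lay close together and replicate 4 was a little lower, and EV replicate 4 was the highest of its group. The log2 difference was 0.47 (SE 0.083, limma adjusted p = 0.0456). Without EV replicate 4 it still passed (adjusted p = 0.0488), and without any of the others it did not (up to 0.159).

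Sema3f, a ligand of neuropilin 2, was the most abundant of the 10 genes in both groups. It stood at 89.6, 96.2, 96.7 and 97.6 FPKM in YAP replicates 1 to 4 and at 75.1, 77.2, 76.3 and 80.0 FPKM in EV replicates 1 to 4. The difference was small beside that of Sema3e but the groups were well apart. The log2 difference was 0.30 (SE 0.055, limma adjusted p = 0.0493), the closest to the threshold of the 4 that passed. It did not pass without any 1 library (adjusted p up to 0.177). The next of the 10 genes by adjusted p was Sema3d, well outside the threshold at 0.218.

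Sema3d, a ligand of neuropilin 1 studied in the heart and its vessels, spread more widely. Its values were 10.9, 12.5, 10.1 and 13.2 FPKM in YAP replicates 1 to 4, against 9.01, 10.99, 7.07 and 7.54 FPKM in EV replicates 1 to 4. EV replicate 2 reached into the range of the libraries labelled YAP. The log2 difference was 0.43 (SE 0.14, limma adjusted p = 0.218, 95% interval 0.11 to 0.75).

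Sema3b, a ligand of both neuropilins and a candidate tumour suppressor in human lung cancer, was above the EV range in the GFP libraries labelled YAP and less so, or not, in the mCherry libraries. The GFP libraries labelled YAP held 15.0 and 17.4 FPKM, against 7.21 and 8.32 FPKM in the GFP libraries labelled EV. The mCherry libraries labelled YAP held 9.67 and 7.43 FPKM, against 9.17 and 7.42 FPKM in the mCherry libraries labelled EV. The log2 difference was thus 1.02 with GFP and 0.037 with mCherry, and 0.53 over all 8 libraries (SE 0.22, limma adjusted p = 0.334). The reporter difference of the YAP effect, a contrast that the choice by name does not refer to, was -0.98 (SE 0.25, limma unadjusted p = 0.00816, adjusted p = 0.371), and so did not pass over all genes.

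**Figure D2:**
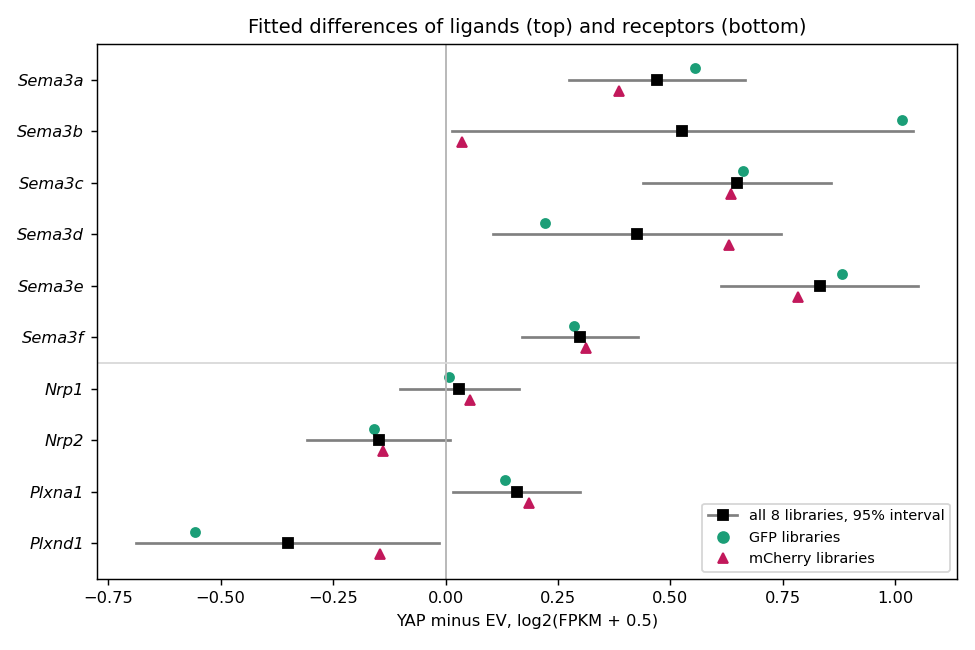
Fitted YAP minus EV difference on the log2(FPKM + 0.5) scale for each gene (squares, with 95% intervals from the fit of all 8 libraries), with the difference within GFP (circles) and within mCherry libraries (triangles). Reporters lie close together for Sema3c and Sema3f and far apart for Sema3b, at 1.02 and 0.037.

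The macrophage and the smooth muscle marker sums also differed by reporter in libraries labelled YAP. They were lower with GFP, where Sema3b was higher. The sum of 13 macrophage markers was 149 and 194 FPKM in the GFP libraries labelled YAP. It was 328 and 356 FPKM in the mCherry libraries labelled YAP. In libraries labelled EV this sum was also lower with GFP, at 285 and 300 FPKM, against 376 and 408 FPKM with mCherry. Sema3b overlapped between the reporters in libraries labelled EV. Of the 12 tested macrophage markers 11 lay below 0 and 2 (C1qa and C1qc) were lower, and none of the 13 was at 0 throughout. Of all 13276 tested genes 6733 lay below 0. Lyz2 alone held 73.5 and 90.6 FPKM in the GFP libraries labelled YAP, and 185 and 199 FPKM in the mCherry libraries labelled YAP. The sum of 8 smooth muscle and pericyte markers was 1023 and 1017 FPKM in the GFP libraries labelled YAP, 1501 and 1526 FPKM in the mCherry libraries labelled YAP and 1498 to 1584 FPKM in those labelled EV. Of its 5 tested genes 4 lay below 0 and 1 (Cnn1) was lower, and none of the 8 was at 0 throughout. Acta2 alone held 470 and 476 FPKM in the GFP libraries labelled YAP, and 843 and 819 FPKM in the mCherry libraries labelled YAP. The part of cells with macrophage or smooth muscle and pericyte markers in the ligand levels was not tested. Of 10 endothelial markers, Cldn5 and Tie1 were at 0 in all libraries, and the sums were 2.81 to 30.9 FPKM in libraries labelled YAP and 1.35 to 13.6 FPKM in those labelled EV. Egfl7, the 1 marker with a mean of at least 1 FPKM over all 8 libraries, was above 0 in 2 of them, YAP replicate 2 (26.2 FPKM) and EV replicate 3 (12.1 FPKM), which hold the highest sums of their groups. Kdr, the main VEGF receptor, and Tek, the angiopoietin receptor, lay under the level filter but did not overlap between the groups. Kdr stood at 1.06 to 1.28 FPKM in libraries labelled YAP and 0.349 to 0.887 FPKM in those labelled EV. Tek stood at 0.870 to 2.28 FPKM in libraries labelled YAP and 0.198 to 0.628 FPKM in those labelled EV. Pecam1 had the lower mean in libraries labelled YAP, 0.0356 FPKM against 0.227 FPKM in those labelled EV, and its ranges overlapped. Cdh5, Emcn, Esam and Vwf overlapped between the groups as well. How many of all genes under the level filter do not overlap was not counted. These single markers are named after their values were seen, and the part of endothelial cells in the ligand levels was not tested. Of 9 neuron and glia markers 2 were tested, 1 of them (Map2) was higher in libraries labelled YAP, Rbfox3 and Snap25 were at 0 in all libraries, and the sums were 22.7 to 27.96 FPKM in libraries labelled YAP and 15.0 to 18.8 FPKM in those labelled EV. The part of Map2-expressing cells was not tested either.

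Neither neuropilin passed. Nrp1, the main receptor of Sema3a and a co-receptor of VEGF-A, stood at 46.2, 46.3, 47.2 and 50.6 FPKM in YAP replicates 1 to 4 and at 46.8, 45.2, 46.6 and 47.4 FPKM in EV replicates 1 to 4. The ranges overlapped, and the 95% interval of the log2 difference ran from -0.10 to 0.16. Nrp2, the main receptor of Sema3f and a co-receptor of VEGF-C, held 63.6, 74.4, 62.6 and 60.6 FPKM in YAP replicates 1 to 4, against 75.6, 78.1, 66.2 and 69.6 FPKM in EV replicates 1 to 4. It was lower in libraries labelled YAP within each reporter on average, by log2 -0.16 with GFP and -0.14 with mCherry, but the ranges overlapped (log2 -0.15, SE 0.068, limma adjusted p = 0.374).

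The plexins had fitted differences of opposite sign, and neither passed. Plxna1, the signalling partner of neuropilins for most class 3 ligands, stood at 55.9, 61.8, 64.9 and 64.6 FPKM in YAP replicates 1 to 4 and at 54.4, 52.8, 55.5 and 58.4 FPKM in EV replicates 1 to 4. Of the libraries labelled YAP 1 lay within the EV range (log2 0.16, SE 0.060, limma adjusted p = 0.299). Plxnd1, the receptor of Sema3e, held 6.35, 8.93, 10.2 and 11.1 FPKM in YAP replicates 1 to 4, against 11.7, 10.96, 10.7 and 13.0 FPKM in EV replicates 1 to 4. Of the libraries labelled YAP 3 were below every EV library, and replicate 4 was not (log2 -0.35, SE 0.14, limma adjusted p = 0.328). The log2 difference was -0.56 with GFP and -0.15 with mCherry, and -0.22 without YAP replicate 1, the lowest library. The gene for the ligand Sema3e and that for its receptor therefore had fitted differences of opposite sign, of which only that of Sema3e passed.

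FPKM is divided by transcript length, and levels are set side by side on that scale. The order given here holds for the per-library values only. In libraries labelled YAP, Sema3f came first at 95.1 ± 3.67 FPKM, followed by Nrp2 at 65.3 ± 6.19 and Plxna1 at 61.8 ± 4.2 FPKM, whose ranges overlapped (SD, n = 4 each). Nrp1 at 47.6 ± 2.05 FPKM and Sema3a at 35.5 ± 1.37 FPKM each stood apart from their neighbours in the order. Sema3c, Sema3b, Sema3d, Plxnd1 and Sema3e followed between 13.9 and 7.86 FPKM on average, each overlapping the next. In libraries labelled EV the first 5 genes came in the same order, from 77.1 ± 2.09 FPKM for Sema3f to 25.6 ± 2.4 FPKM for Sema3a, and Sema3f overlapped Nrp2 there. Plxnd1 stood sixth at 11.6 ± 1.04 FPKM, apart from its neighbours, and Sema3c, Sema3d and Sema3b overlapped one another at means of 8.69, 8.65 and 8.03 FPKM. Sema3e was the lowest in both groups. The order is not the same in the authors' deposited table, where the YAP arm gives Plxna1 116 FPKM, Sema3a 74.9, Nrp2 73.7 and Nrp1 53.4 FPKM, so that Sema3a stands above both neuropilins and Plxna1 above Nrp2.

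**Figure D3:**
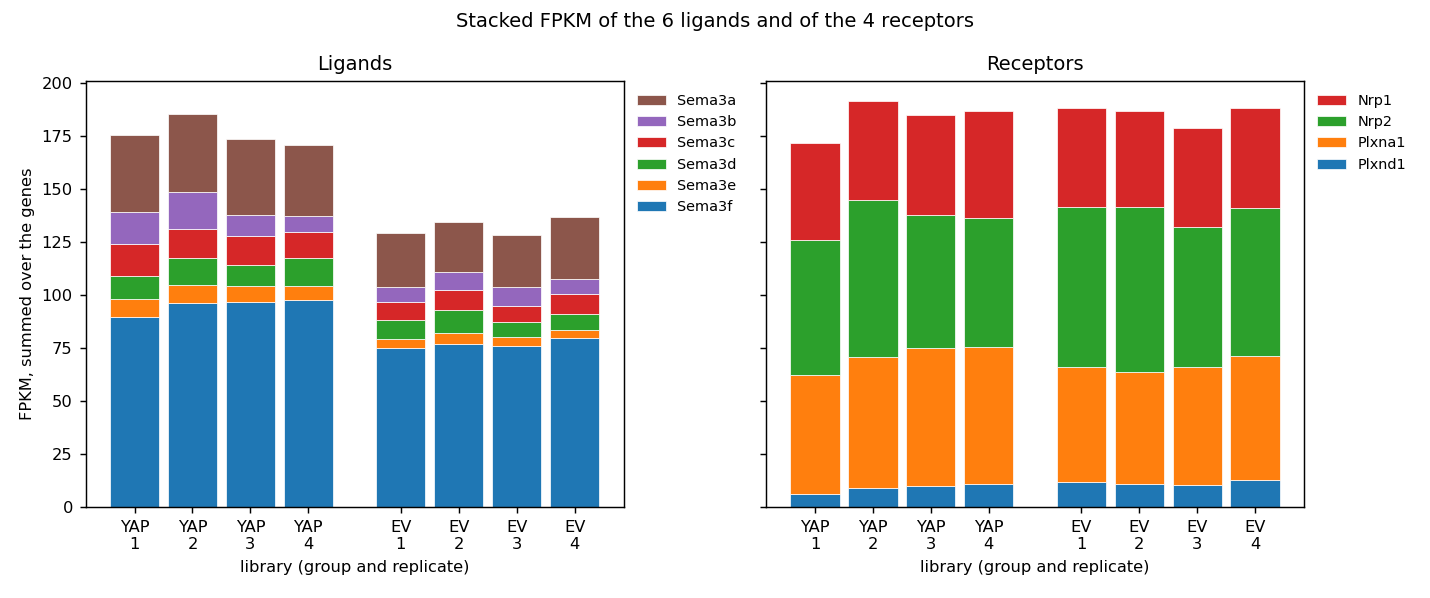
Stacked FPKM (y axis, from 0) of the 6 ligands (left) and the 4 receptors (right) in each library, with libraries labelled YAP left of those labelled EV. The ligand stacks reach 171 to 185 FPKM in libraries labelled YAP and 128 to 137 FPKM in those labelled EV, and the receptor stacks overlap.

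Summed over the 6 ligands, the level was 175, 185, 174 and 171 FPKM in YAP replicates 1 to 4, against 129, 135, 128 and 137 FPKM in EV replicates 1 to 4. The receptors summed to 172 to 191 FPKM in libraries labelled YAP and to 179 to 189 FPKM in those labelled EV. Ligand over receptor transcript was 0.961 ± 0.0450 in libraries labelled YAP and 0.712 ± 0.0179 in those labelled EV (SD, n = 4 each). Sema3f made up 51.1% to 57.1% of the ligand sum in libraries labelled YAP and 57.3% to 59.5% in those labelled EV, whereas Sema3e made up 3.84% to 4.85% in libraries labelled YAP and 2.79% to 3.56% in those labelled EV. These sums restate the differences of the single genes and carry no test.

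Between the reporters, likewise not referred to in the choice, 0 of the 10 genes passed (limma, mCherry minus GFP), where 0.0904% of all tested genes did. Without adjustment 2 of the 10 had p under 0.05, where 10.6% of all tested genes did: Sema3e, lower with mCherry by log2 -0.23 (SE 0.093, adjusted p = 0.453), and Nrp2, lower with mCherry by log2 -0.17 (SE 0.068, adjusted p = 0.456). For the reporter difference of the YAP effect, 0 of the 10 passed, where 0.0678% of all tested genes did, and 1, Sema3b, had an unadjusted p under 0.05, where 9.81% did.

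The authors' deposited table, which holds 1 FPKM value for a control arm and 1 for a YAP arm and does not list the libraries in each, calls 3 of the 10 genes, all higher in the YAP arm, where it calls 3.04% of the 12005 genes it tests higher and 5.95% in either direction. In the authors' deposited table Sema3e stood at 8.60 FPKM in the YAP arm and 4.75 FPKM in the control arm (q = 0.000502), and Sema3c at 16.2 FPKM in the YAP arm and 10.1 FPKM in the control arm (q = 0.000502). Sema3b is the third gene called in the authors' deposited table, at 18.9 FPKM in the YAP arm and 10.9 FPKM in the control arm (q = 0.0124), although it did not pass in the per-library fit. Sema3f (q = 0.124) and Sema3a (q = 0.641) are not called in the authors' deposited table. The deposited arm values of Sema3a, 74.9 FPKM in the YAP arm and 61.0 FPKM in the control arm, were far above its per-library values: the control arm was 2.39 times the mean of the EV libraries. That ratio was 2.63 for Plxnd1 and 1.83 for Plxna1, and 1.12 to 1.36 for the other 7 genes, against a median of 1.14 over 11469 genes, of which 6.16% exceeded 2. The calls for Sema3a therefore differ between the tables along with its level, and the cause was not tested.

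The ligand genes sit in 2 groups on the genome (GENCODE M21, GRCm38). On chromosome 5, Sema3d (12383385 to 12588948), Sema3a (13125414 to 13602565), Sema3e (14025276 to 14256689) and Sema3c (17574281 to 17730268) lie on the plus strand within 5.35 Mb. On chromosome 9, Sema3b (107597674 to 107609229) and Sema3f (107681500 to 107710475) lie on the minus strand, 72.3 kb apart. Of the 9 other tested genes that lie within the chromosome 5 stretch 0 passed (limma) and 0 had an unadjusted p under 0.05, and their median log2 difference was 0.070. Hgf, the ligand of Met, is among them, at 3.41 FPKM in libraries labelled YAP and 4.03 FPKM in those labelled EV (adjusted p = 0.844). Gnai2, the 1 tested gene between Sema3b and Sema3f, differed by log2 0.066 (adjusted p = 0.673).

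The receptor genes are spread over the genome. Nrp1 lies on chromosome 8 (128358604 to 128503363, plus strand), Nrp2 on chromosome 1 (62703285 to 62818695, plus strand), and Plxna1 (89316314 to 89362620) and Plxnd1 (115954811 to 115995005) on the minus strand of chromosome 6. All 10 are protein-coding genes. Overlapping gene models stand at 6 of the 10 (Sema3a, Sema3d, Sema3e, Nrp1, Nrp2 and Plxna1), all under 0.4 FPKM on average in each group except the pseudogene Gm8925 on the opposite strand of Sema3d (1.24 FPKM in libraries labelled YAP and 0.879 FPKM in those labelled EV).

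RefSeq promoter windows (GRCm38.p6) were found for 7 of the 10 genes, and not for Sema3b, Sema3f and Plxna1. Shown are those of the 3 ligands that rose and have a window, since they share a direction, and that of Plxnd1, chosen because it alone of the 7 holds a TEAD motif. Each line below gives the 250 bases before the RefSeq start, 5′ to 3′ on the strand of the gene. In the ligand windows capitals mark CG dinucleotides, and in the Plxnd1 window they mark the TEAD motif.
Sema3e: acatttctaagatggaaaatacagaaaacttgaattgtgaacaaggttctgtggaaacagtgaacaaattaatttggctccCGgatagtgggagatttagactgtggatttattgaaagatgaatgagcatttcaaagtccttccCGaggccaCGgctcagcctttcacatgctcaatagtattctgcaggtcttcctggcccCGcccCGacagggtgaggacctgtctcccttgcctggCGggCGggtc
Sema3c: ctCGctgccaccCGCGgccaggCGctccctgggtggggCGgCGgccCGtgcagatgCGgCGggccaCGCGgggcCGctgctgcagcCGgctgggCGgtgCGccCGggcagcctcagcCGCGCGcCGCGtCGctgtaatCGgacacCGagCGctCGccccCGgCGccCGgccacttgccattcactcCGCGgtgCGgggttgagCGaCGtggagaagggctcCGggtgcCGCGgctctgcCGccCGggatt
Sema3a: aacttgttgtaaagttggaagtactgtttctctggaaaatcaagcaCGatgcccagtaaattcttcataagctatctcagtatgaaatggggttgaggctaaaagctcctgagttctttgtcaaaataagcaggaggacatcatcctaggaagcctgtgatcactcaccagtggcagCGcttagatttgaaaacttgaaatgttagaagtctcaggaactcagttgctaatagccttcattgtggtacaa
Plxnd1: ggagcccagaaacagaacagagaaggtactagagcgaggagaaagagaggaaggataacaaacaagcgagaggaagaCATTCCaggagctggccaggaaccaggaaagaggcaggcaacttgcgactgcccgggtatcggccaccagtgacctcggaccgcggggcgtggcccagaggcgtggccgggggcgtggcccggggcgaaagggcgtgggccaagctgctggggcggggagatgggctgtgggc

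The windows are chr5:14025026-14025275 (plus strand) for Sema3e, chr5:17574566-17574815 (plus strand) for Sema3c, chr5:13396534-13396783 (plus strand) for Sema3a and chr6:115995006-115995255 (minus strand) for Plxnd1. The RefSeq start of Sema3a lies 271 kb inside the GENCODE gene, so its window stands for 1 of its starts. Letters differ sharply among ligands that rose together: the Sema3c window holds 39 CG dinucleotides and 78.4% G or C, that of Sema3e 7 and 48.0%, and that of Sema3a 2 and 40.8%, where the median of all 32851 windows is 6 and 52.4%. TEAD factors, the DNA-binding partners of YAP, recognise GGAATG. It was searched on both strands and was found in 1 of the 7 windows, that of Plxnd1, as its reverse complement CATTCC 173 bases before the start, and 12.6% of all windows hold it. The AP-1 motif TGANTCA, searched likewise, was found in 0 of the 7 windows, and 6.75% of all windows hold it. No match says only that these letters are not in this window.

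Around the 10 genes, 8 lists of related genes were looked at: other members of the family, VEGF genes that share the neuropilins, plexin signalling, partners, processing enzymes and other guidance families. Of 88 tested genes 3 were higher, 1 was lower and 84 did not pass, with a median log2 difference of 0.0041, against -0.0038 over all tested genes. The 4.55% that passed stand beside 1.76% of all tested genes in either direction.

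**Figure D4:**
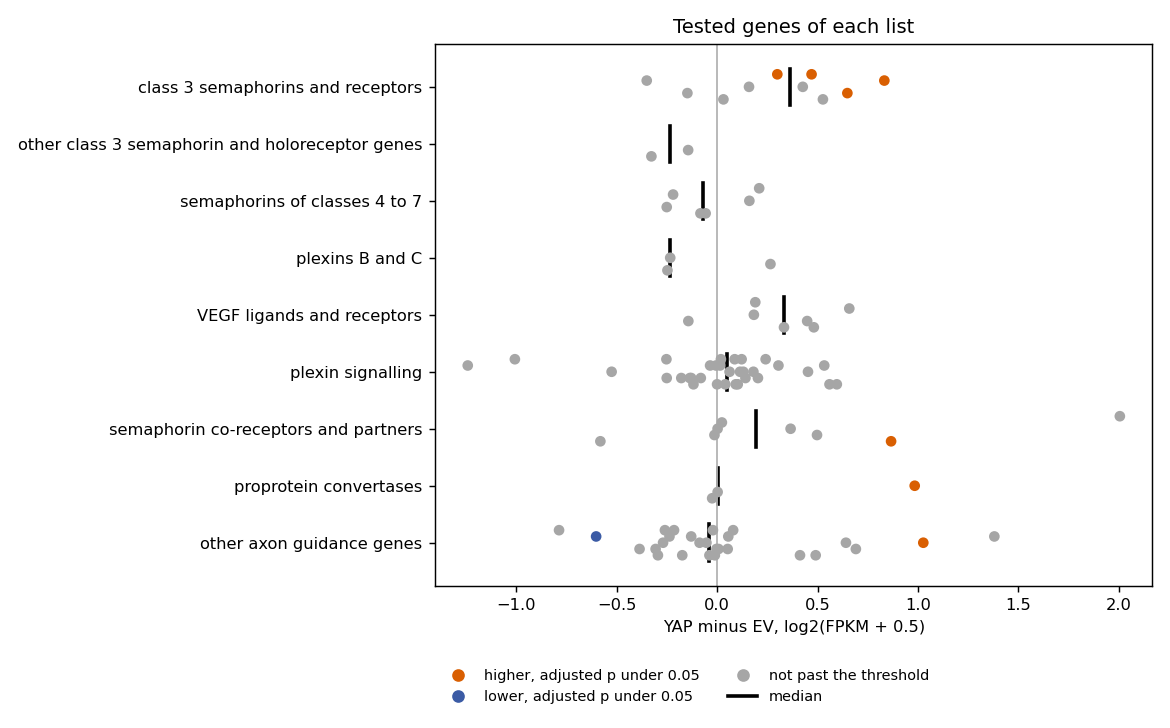
Fitted YAP minus EV differences on the log2(FPKM + 0.5) scale (x axis) for each tested gene of the class 3 set and of the 8 related lists; orange is higher and blue lower at an adjusted p under 0.05, grey did not pass, and black lines are medians. The class 3 set, which was chosen with this contrast known, has its median at 0.36. The 3 lists of other semaphorins and plexins hold 2, 6 and 3 tested genes and have medians below 0, and nothing is read from that contrast.

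None of the tested genes in the rest of the semaphorin and plexin families passed. Of 4 other class 3 and holoreceptor genes, Sema3g and Plxna4 stayed at means under 0.5 FPKM in both groups and were not tested. Plxna2, another partner of neuropilins, stood at 2.16 ± 0.363 FPKM in libraries labelled YAP and 2.82 ± 0.0972 FPKM in those labelled EV (limma adjusted p = 0.375), and every library labelled YAP was below every library labelled EV, as were those of 4.83% of all tested genes. Plxna3 had a log2 difference of -0.14 (adjusted p = 0.597). Of 13 semaphorins of classes 4 to 7, which are mostly membrane-bound, 6 were tested and 0 passed (limma), also at an unadjusted p under 0.05, with a median log2 difference of -0.071. The tested genes leave out Sema6d and Sema7a, which lay just under the level filter and are named after their values were seen. Sema6d stood at 0.383 to 0.617 FPKM in libraries labelled YAP and 1.12 to 1.49 FPKM in those labelled EV. Sema7a stood at 0.349 to 0.763 FPKM in libraries labelled YAP and 1.12 to 1.61 FPKM in those labelled EV. Both were thus lower in every library labelled YAP than in any labelled EV. The share of all genes under the level filter without overlap was not counted, so nothing is read from this. The smallest p-values among the tested genes were those of Sema4c (log2 -0.25) and Sema5a (log2 -0.22). Of 3 tested plexins of classes B and C 0 passed and 1 had an unadjusted p under 0.05, where 14.5% of all tested genes did. Plxnb2, the most abundant of the 9 plexins measured, stood at 137 ± 3.5 FPKM in libraries labelled YAP and 114 ± 3.67 FPKM in those labelled EV, without overlap (log2 0.27, SE 0.054, limma adjusted p = 0.0730). Plxnc1 had a log2 difference of -0.23 (adjusted p = 0.388).

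Among 7 tested VEGF ligands and receptors 0 passed (limma) and 2 had an unadjusted p under 0.05, where 14.5% of all tested genes did. Both are ligands that bind neuropilins. Vegfa held 105, 131, 123 and 127 FPKM in YAP replicates 1 to 4, against 56.5, 59.5, 71.3 and 142 FPKM in EV replicates 1 to 4, so that EV replicate 4 stood above all others (log2 0.66, SE 0.24, adjusted p = 0.277). Vegfc stood at 3.07 ± 0.571 FPKM in libraries labelled YAP and 2.31 ± 0.0695 FPKM in those labelled EV (adjusted p = 0.320). Of 32 tested genes of plexin signalling 0 passed and 6 had an unadjusted p under 0.05, where 14.5% of all tested genes did. The Ras family GTPase Rras2 stood at 32.8 ± 1.91 FPKM in libraries labelled YAP and 22.2 ± 2.69 FPKM in those labelled EV (limma adjusted p = 0.0504). Rhoa, a GTPase of the actin cytoskeleton, stood at 226 ± 48.9 FPKM in libraries labelled YAP and 147 ± 15.2 FPKM in those labelled EV (adjusted p = 0.0522).

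The related genes that passed were a receptor, a protease and 2 guidance genes. Met, the receptor of hepatocyte growth factor, which can join plexin B complexes, was the 1 of 8 tested partners that passed. It held 6.36, 9.26, 7.42 and 7.30 FPKM in YAP replicates 1 to 4, against 4.22, 3.4999, 3.52 and 4.44 FPKM in EV replicates 1 to 4 (log2 0.87, SE 0.14, limma adjusted p = 0.0367). Pcsk6, a proprotein convertase of the furin family, whose members cleave class 3 semaphorins, was the 1 of 3 tested convertases that passed. It held 12.4, 11.1, 9.09 and 12.4 FPKM in YAP replicates 1 to 4, against 5.84, 4.54, 4.89 and 6.51 FPKM in EV replicates 1 to 4 (log2 0.98, SE 0.15, limma adjusted p = 0.0295). Furin itself stood at 38.8 FPKM in libraries labelled YAP and 39.5 FPKM in those labelled EV (adjusted p = 0.882), named here after its values were seen.

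Of 27 tested genes of other guidance families 1 rose and 1 fell. Ntn4, a netrin of basement membranes, stood at 14.1 ± 0.625 FPKM in libraries labelled YAP and 6.65 ± 0.428 FPKM in those labelled EV (log2 1.03, SE 0.076, limma adjusted p = 0.00244). Epha3, an ephrin receptor, stood at 4.12 ± 0.793 FPKM in libraries labelled YAP and 6.46 ± 0.579 FPKM in those labelled EV (log2 -0.60, SE 0.10, limma adjusted p = 0.0429). Ntn4 passed without each of the 8 libraries in turn (adjusted p up to 0.0210). Pcsk6 passed without YAP replicate 3 and without EV replicate 4, and not without any of the other 6 libraries (adjusted p up to 0.108). Neither Met (adjusted p up to 0.115) nor Epha3 (up to 0.140) passed without any 1 library.

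The genes whose log2 profile over the 8 libraries was nearest to that of Sema3e, the ligand with the largest difference, were Plk2, a polo-like kinase, Pik3cb, a catalytic subunit of PI3-kinase, and the gene model Gm15079. Their root mean square distances were 0.1003, 0.107 and 0.110 on the log2 scale, where the median over all tested genes was 0.496. Nearest to Plxnd1, the receptor with the largest difference, were Itgb3, the integrin beta 3 chain, Dlk1, an imprinted membrane protein, and Mest, another imprinted gene. Their distances were 0.0702, 0.0832 and 0.0864, where the median was 0.354. All 8 libraries enter both measures, so genes with a like difference between the groups come first.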

How the data were processed

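RNA of 8 MEF libraries (4 labelled YAP and 4 labelled EV) was extracted with Trizol and prepared with a stranded TruSeq mRNA kit, per the labels' protocols. The authors deposited gene-level FPKM per library, and a comparison table with FPKM, p-values and q-values per pooled arm. TopHat, Cufflinks and mm10 are named per the submitters' processing notes. Versions, annotation and use of strand are not given in the sources used here.

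Of 48641 rows, 114 rows with 49 repeated identifiers were left out, which left 48527 genes. FPKM keeps no counts, so no counting intervals are given. Relative depth, read from low values, was 0.559 to 1.11 times that of EV replicate 1. Genes with a mean of at least 1 FPKM (13276, all 10 described genes among them) were tested on log2(FPKM + 0.5) with limma 3.58.1 (R 4.3.3), with a variance trend and terms for reporter and group, and with Benjamini-Hochberg adjustment over all tested genes at 0.05. A second fit tested the reporter difference of the YAP effect. The fit was tested on simulated data with 200 changed genes. It recovered 17% of the 100 with a log2 change of 0.5 and 66% of the 100 with a log2 change of 1. A gene that did not pass may therefore still differ. Tables and figures were made with Python 3.11.15, pandas 2.3.3, numpy 2.4.6 and matplotlib 3.10.9. Alternatives changed the pseudocount, level filter, variance model, reporter term, scaling, replicate block and libraries.

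The genes and lists were chosen with earlier results of these data known. Named beside the 10 genes are, from each related list, genes past the threshold or otherwise the 2 with the smallest p, the 3 genes with the nearest profiles for 1 ligand and 1 receptor, and Yap1 and 4 YAP targets.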

Additional observations from a re-analysis of the deposited data

Results flagged for a closer look

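Sema3a in the libraries labelled YAP had 1 library apart from the other 3: replicate 4, the lowest of the 4, at 33.47 FPKM. Its gap to the nearest library was 0.832 of the range of the group, just above Dixon's critical value for 4 libraries. In all, 20 groups of 4 libraries were screened, and chance gives about 1 in 20. Without this library the Sema3a difference kept its direction but did not pass (log2 0.51, limma adjusted p = 0.0868).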

How the results depend on the processing

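All 10 differences kept their sign under all 17 alternatives: of 170 values 131 stayed on the same side of the threshold and 39 lost the call. Of the 10 genes, where 4 passed, 2 passed with no variance trend, 0 with the GFP libraries alone, 0 with the mCherry libraries alone, and 0 to 3 when 1 library was left out (0 without YAP replicate 2). Of the related genes, where 3 passed upwards and 1 downwards, 6 passed with a pseudocount of 0.1 and 5 with median-ratio scaling, 4 passed upwards and 0 downwards with no reporter term, 1 passed with no filter on level, 0 with the GFP libraries alone, 0 with the mCherry libraries alone, and 1 to 3 when 1 library was left out. Halving the libraries also left few calls over all genes, 16 with GFP alone and 9 with mCherry alone. Sema3e passed in 13 of the 17 alternatives, Sema3c in 7, Sema3a in 5 and Sema3f in 4. The counts between reporters, and for the reporter difference of the YAP effect, were 0 under every alternative run.

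Libraries with the same replicate number deviated together only weakly (correlations of 0.0521, 0.0206, -0.0150 and 0.0897). The highest correlation with another number was 0.0450, 0.0626, 0.0573 and 0.00684, so that replicates 1 and 4 stood above it and replicates 2 and 3 below. Because reporter goes with replicate number, these correlations cannot decide whether the numbers pair the libraries. With the mean of each group and reporter taken out, the same-number correlations were 0.00628 for replicates 1 and 2 and 0.00673 for replicates 3 and 4. Within a reporter, libraries of the same number thus hardly deviated together, though each value rests on 2 libraries per group. With the replicate block in place of the reporter, 0 of the 10 genes and 0 of the related genes passed, and over all genes 6 were higher and 9 lower, where 124 were higher and 109 lower without it. The depth behind low FPKM values is unknown beyond the relative depths given.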
